A study of Mus musculus with 2 samples.

Results

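The wide peaks are stretches of open chromatin of 400 bases or more in mouse spleen, found by DNase-seq in both libraries of the study. They were chosen by width and overlap: a peak of replicate 1 had to span at least 400 bases and share at least 1 base with a peak of replicate 2. This gave 1034 members, which is 2.14% of the 48286 peaks of replicate 1 and 4.03% of the 25633 peaks shared with replicate 2. The other 24599 shared peaks, all under 400 bases, are called narrower peaks here. Each library came with a pair of peak lists, and the one covering fewer bases, the strict list, was used.

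DNase I cuts DNA where chromatin is open, and the ends of the cut pieces, once sequenced, mark promoters, enhancers and insulators. Most such sites have room for about a single displaced nucleosome, whereas promoters in CpG islands, stretches rich in the CpG dinucleotide that are usually free of DNA methylation, can be open over a longer span that reaches into the start of the gene. Within an open site, a protein bound to DNA can shield a few bases from the enzyme, which leaves a footprint. The spleen of a young mouse makes red cells and also holds B cells, T cells, macrophages and supporting stroma, so that each peak is a mixture over cell types.

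The tissue was whole spleen of males aged 14 days. Their strain, B6CASTF1/J, is the first generation of a cross between a laboratory strain and CAST mice. There was 1 group with 2 biological replicates, untreated as far as the labels say, and 1 library was made from each. Replicate 1 was labelled as coming from 3 males and replicate 2 from 1 male, and both carried the same donor entry. Without a second group there was no contrast to test, and the members, being regions of the same libraries, were not replicates of each other, so all values below are descriptions without p-values. Intervals on shares are exact binomial 95% intervals and cover counting error over regions only. The number of reads behind a peak height is unknown here, so heights carry no counting interval. Of all 21911 protein-coding genes 11182 had a shared peak within 1000 bases of a start site. Among genes that mark cell types of the spleen, 18 of 19 erythroid, 12 of 16 B cell, 8 of 15 macrophage and dendritic, 5 of 16 T cell, 2 of 14 stromal and endothelial and 0 of 14 granulocyte and natural killer genes had one, and of liver genes 0 of 10.

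The middle of 3 members is printed to show how far base composition and footprints varied, from a distal peak with few CpG to one over the beginning of a gene with many. All are the + strand of GRCm38 (mm10), written 5′ to 3′ in lower case, and capitals mark bases inside a footprint of either library. The sequence is that of the reference strain, so the CAST alleles of the cross are not shown. The peak nearest to Gm48783 on chromosome 13 was the widest member more than 1000 bases from any start site; it lay between genes, and its window is chr13:13523921-13524220. The peak in an intron of Arid5b, an AT-rich interaction domain gene, has the window chr10:68276841-68277140. The peak inside Fryl, downstream of the start site and outside exons, has the window chr5:73255691-73255990.
Gm48783: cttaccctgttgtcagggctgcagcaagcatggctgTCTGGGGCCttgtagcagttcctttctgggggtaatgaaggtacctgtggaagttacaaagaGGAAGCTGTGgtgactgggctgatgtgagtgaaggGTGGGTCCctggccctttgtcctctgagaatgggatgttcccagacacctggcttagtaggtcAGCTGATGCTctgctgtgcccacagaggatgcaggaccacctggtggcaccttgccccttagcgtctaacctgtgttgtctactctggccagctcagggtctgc
Arid5b: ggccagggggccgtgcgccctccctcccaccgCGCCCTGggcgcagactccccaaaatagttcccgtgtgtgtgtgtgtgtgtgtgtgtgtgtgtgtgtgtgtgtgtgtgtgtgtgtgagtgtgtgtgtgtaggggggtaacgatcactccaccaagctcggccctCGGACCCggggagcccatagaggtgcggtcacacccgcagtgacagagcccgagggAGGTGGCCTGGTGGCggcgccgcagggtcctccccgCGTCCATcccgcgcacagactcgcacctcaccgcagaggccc
Fryl: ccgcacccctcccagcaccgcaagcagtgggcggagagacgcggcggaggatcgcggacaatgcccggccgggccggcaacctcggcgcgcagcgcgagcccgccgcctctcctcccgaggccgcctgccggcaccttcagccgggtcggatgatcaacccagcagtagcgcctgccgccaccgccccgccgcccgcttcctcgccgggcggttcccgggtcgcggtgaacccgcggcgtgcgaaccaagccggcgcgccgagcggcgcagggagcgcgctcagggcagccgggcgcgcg

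The Fryl window held 51 CpG dinucleotides in 300 bases, was 78.3% G or C, and had no footprint base in either library. The Gm48783 window held 1 CpG in the same length, was 56.3% G or C, and had 32 footprint bases in replicate 1 and 15 in replicate 2, of which 10 were the same bases. The Arid5b window lay between these with 22 CpG.

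Width is the value that chose the members, and it is given as a description. The median member spanned 460 bases (quartiles 420 and 527) and the widest 1000. There were 355 members of at least 500 bases, 133 of at least 600 and 22 of at least 800. Widths fell on a coarse scale: 970 members (93.8%) had a width that is a multiple of 20, and 191 were exactly 400 bases wide. Just below the limit, 268 shared peaks spanned 380 to 399 bases. The members covered 0.505 Mb, or 0.493 Mb once overlapping ones were merged. Peaks of the strict list of replicate 1 could overlap each other, and 280 members (27.1%) overlapped another peak of it, against 0.959% of the narrower peaks. Merging gave 1006 separate regions, 980 of them with 1 member.

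The highest members of exactly 400 bases were promoters. They were at Add3, a membrane skeleton adducin, with a height of 26.1 in replicate 1 and 14.7 in replicate 2, and at Khsrp, Mtmr4, Chchd7 and Ptbp1, with heights of 24.3 to 28.6 and 10.1 to 13.0. The shared peaks nearest below the limit, 395 to 399 bases wide, were at Nsun2, Gm22711, Edaradd, Dctd and Tspan32, and ranged from 0.789 to 1.59 in replicate 1. The first set was ranked by height and the second by closeness to the limit, so their heights are not to be compared.

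Replicate 2 width was not used by the rule, and it matched replicate 1 only in part. The widest replicate 2 peak over a member had a median of 320 bases, and at 379 members (36.7%, interval 33.7 to 39.7%) it reached 400. Over all shared peaks this share was 4.10%, and among the narrower ones 2.73%. A longer member can meet more peaks, and 258 of the 1034 members met more than 1 in replicate 2. Of the 24599 narrower peaks 238 (0.968%) did so, and of all 25633 shared peaks 496 (1.94%). The 1034 members divided into 515 with 1 peak under 400 bases in replicate 2, 261 with 1 wide peak, 140 with several narrow peaks and 118 with several of which at least 1 was wide.

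**Figure D1:**
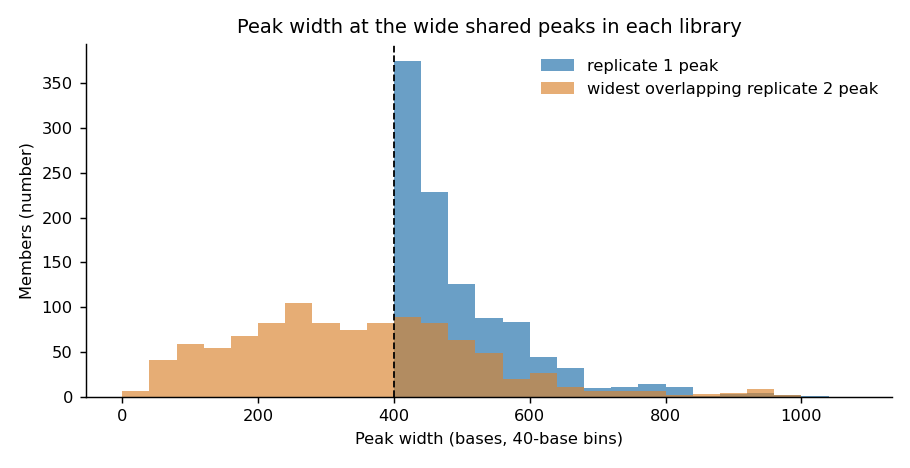
Number of members by peak width in 40-base bins, for the replicate 1 peak (blue) and for the widest replicate 2 peak that overlaps it (orange); the dashed line is the limit of 400 bases that was set on replicate 1. Replicate 1 starts at the limit and falls away towards 1000 bases, while replicate 2 spreads on both sides with a median of 320 bases.

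Over the 1034 members Spearman's rho between the libraries was 0.912 for height and 0.134 for width; the points share the 2 libraries and the limit on replicate 1 width narrows the range of the second measure. Over all 25633 shared peaks rho was 0.929 for height and 0.520 for width. Replicate 2 peaks covered a median of 71.3% of a member's bases, against 91.1% of a narrower peak. Bases with a deposited false discovery rate of at most 0.001 in replicate 2 made up a median of 95.4% of a member, more than its called peaks covered. At 182 members (17.6%) they made up less than 50%, against 6.75% of all shared peaks, where the median was 100%.

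Overlap with replicate 2, which the rule used, was more frequent for wide peaks than for others. Of the 1349 wide peaks of replicate 1, 76.6% had an overlapping peak in replicate 2, against 52.4% of narrower peaks and 53.1% of all replicate 1 peaks. Replicate 2 had 1048 wide peaks of its own, 3.63% of its 28837, and 378 of them overlapped a member.

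The extremes of width in replicate 2 named partly different genes. A replicate 2 peak of 979 bases lay over the 640-base member in Tnrc6c, a GW182 protein of microRNA silencing. One of 960 bases lay over the 720-base member at Cdk17, a cyclin-dependent kinase. At Dis3l, an exosome nuclease, a single 940-base peak of replicate 2 met a pair of overlapping members of 780 and 460 bases. Gphn, which encodes the scaffold protein gephyrin, was wide in both libraries, at 880 and 940 bases.

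The members were lower than the narrower peaks, although they were wider. Their median height was 1.90 in replicate 1 (quartiles 1.34 and 3.42, range 0.428 to 40.4) and 1.37 in replicate 2 (quartiles 1.06 and 2.12, range 0.366 to 19.5). The narrower peaks had medians of 3.18 and 2.08. Across width classes the height was largest at 200 to 299 bases, with medians of 4.13 and 2.55, and fell to 1.59 and 1.26 at 600 bases or more. Wide peaks were thus, in the middle of their range, shallow ones in both libraries.

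Between the libraries the median offset of the members was near that of all shared peaks, but it differed by position. On the log2 scale replicate 1 exceeded replicate 2 by a median of 0.50 at members and 0.57 at all shared peaks. The median was 0.54 for members with a start site inside, 0.36 with one outside but within 1000 bases, and 0.72 further away. Narrower peaks of these positions had 0.69, 0.54 and 0.37. Replicate 1 was higher at 967 members (93.5%), against 88.5% of all shared peaks, and at least 2-fold higher at 99 (9.57%), against 15.7% of all shared peaks. The scale of the heights is not given, so a difference in openness and one in scale cannot be told apart.

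**Figure D2:**
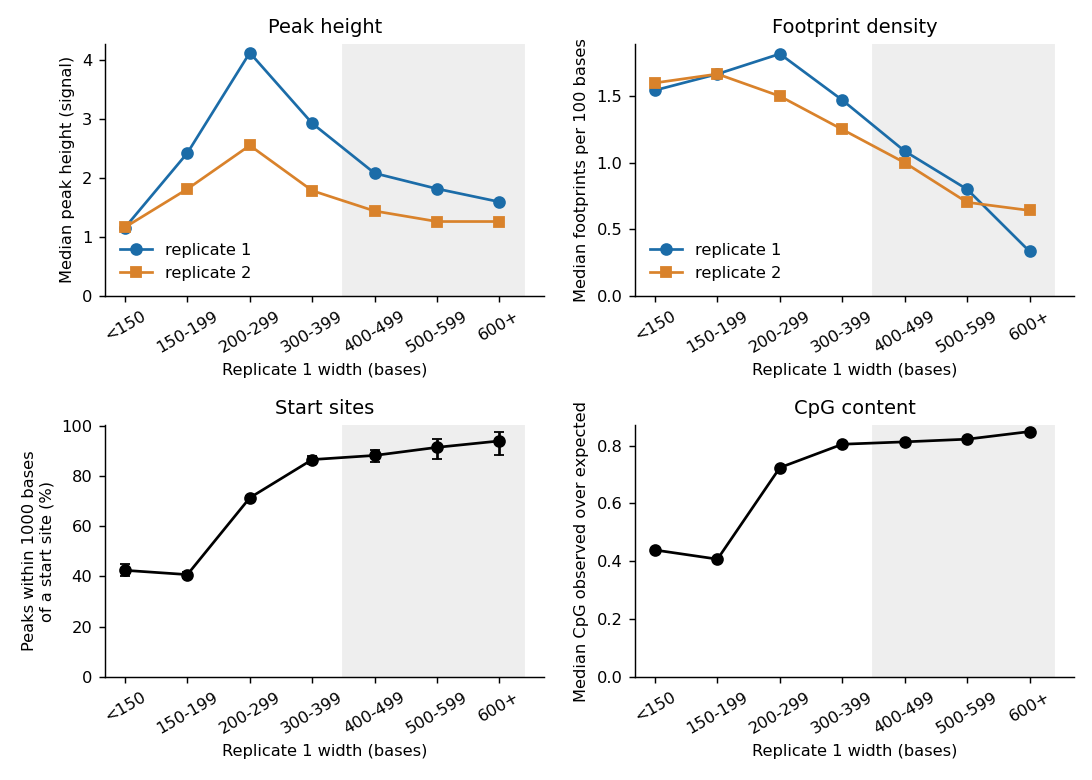
Shared peaks by replicate 1 width class, with the classes that hold the members shaded: median height and median footprints per 100 bases in replicate 1 (blue circles) and replicate 2 (orange squares), share within 1000 bases of a start site with exact 95% intervals, and median CpG observed over expected. Height is largest at 200 to 299 bases and lower beyond, and footprint density falls in both libraries from 300 bases on. Start site share and CpG content rise further above 300 bases in smaller steps, to 94.0% and 0.848 at 600 bases or more.

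Most wide peaks lay at promoters. Of the 1034 members, 927 (89.7%, interval 87.6 to 91.4%) were within 1000 bases of an annotated start site, against 63.0% of all shared peaks and 61.8% of the narrower ones. Another 57 lay between genes, 41 in introns and 9 in exons. The start site share was already 86.6% at 300 to 399 bases, compared with 40.8% at 150 to 199 bases, and reached 94.0% at 600 bases or more. The share was also taken among peaks with a replicate 1 height between 1.34 and 3.42, the middle of the members' own range. It was 87.9% for members and 45.4% for narrower peaks. Members were still the lower ones within this band, with a median height of 1.89 against 2.17 in replicate 1.

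By chromosome, chromosome 11 had the most members, 81. As a share of shared peaks they ran from 2.90% on chromosome 14 to 6.04% on chromosome 3, and none of the 14 shared peaks of the Y chromosome was wide.

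The members fell into 3 position groups with different heights. In 546 a start site lay inside the peak, and these had a median height of 2.38 in replicate 1 and 1.67 in replicate 2. In 381 the nearest start site lay outside the peak but within 1000 bases, and the medians were 1.59 and 1.21. The remaining 107, called distal here, had medians of 2.15 and 1.23. In replicate 1 the first 2 groups were below the narrower peaks of the same position, at 6.84 and 2.73. The distal members were close to theirs at 2.06 there. In replicate 2 all 3 groups were below the narrower peaks, which had 4.12, 1.81 and 1.45.

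The centres of wide peaks lay downstream of start sites more often than those of narrower peaks. For 876 members near a protein-coding start site the median centre was 71 bases downstream, against 25.5 bases upstream for 14113 narrower peaks (a value of -25.5). The distance depended on the choice of members: it was 10.5 bases with a limit of 300, 112.5 with 500, 46.5 where replicate 2 covered at least 50% of the member, and 45.5 for all wide peaks of replicate 2 without replicate 1, all downstream. Downstream centres made up 62.6% of members and 32.0% of narrower peaks. Centres at 200 to 1000 bases downstream made up 36.4% and 15.2%. A member with the start site outside is centred at least 200 bases away by width alone. The width limit thus sets part of this difference. A downstream median was also seen when the width limit was put on replicate 2. It was 36.5 bases downstream for its wide shared peaks and -22.5 for its narrower ones. In replicate 1 the distance differed by position. With a start site inside, members had a median of 4 bases and 51.5% downstream, against -26.5 and 22.6% for narrower peaks. With the start site outside but within 1000 bases, the medians were 435.5 for members and 133.5 for narrower peaks. Here too the distance of a member is at least 200 bases by width alone. Both medians mix upstream and downstream centres.

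**Figure D3:**
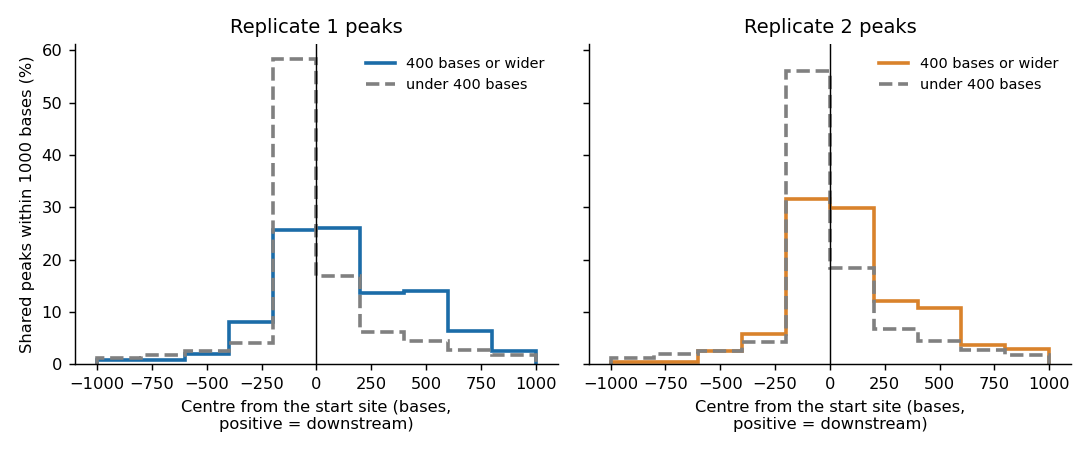
Position of the peak centre relative to the nearest protein-coding start site in 200-base bins, as a share of shared peaks within 1000 bases, for peaks of 400 bases or more (solid) and under 400 bases (dashed) in each library. Narrower peaks of replicate 1 have 58.3% of centres in the 200 bases before the start site, against 25.7% for members, which extend to the downstream side in both libraries.

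Height went with this position within the members. With the members ranked by replicate 1 height and cut into 4 equal classes, the median centre was at 221.5 bases in the lowest class and at -102.5 in the highest, where a negative value is upstream. The highest wide peaks were centred before the start site and the lowest ones within the first part of the gene.

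The members often stood beside a taller peak. A strict peak of replicate 1 that was higher than the member lay within 500 bases of 520 members (50.3%, interval 47.2 to 53.4%), against 15.7% of all shared peaks, 14.3% of the narrower ones and 35.5% of those of 300 to 399 bases. The neighbour was higher by a median factor of 4.08, compared with 2.06 for narrower peaks. A low peak has more chance of a higher neighbour, so the share was also taken between heights of 1.34 and 3.42. There it was 55.9% for members and 16.0% for narrower peaks. Members were the lower ones within this band too, at a median of 1.89 against 2.17. In replicate 2, 478 of the 520 (91.9%) also had a taller peak within 500 bases, against 16 of the other 514 (3.11%).

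Taller neighbours were most frequent where the start site lay outside the member. In that group 75.3% had one, higher by a median factor of 5.04, against 36.2% and 2.63 for narrower peaks of the same position. A start site lay inside 72.1% of those neighbours, no more than the 74.3% for narrower peaks there. Members with a start site inside had one in 38.1% and distal members in 23.4%, against 11.6% and 4.72% of narrower peaks. Of the 348 members outside a start site with a nearby protein-coding one, 276 (79.3%) were downstream of it, against 52.1% of narrower peaks there. Of these 276, 87.0% had a taller neighbour and 40.2% had their centre in an exon. The 72 upstream ones had a taller neighbour in 47.2%. The shares by side were not taken for narrower peaks.

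**Figure D4:**
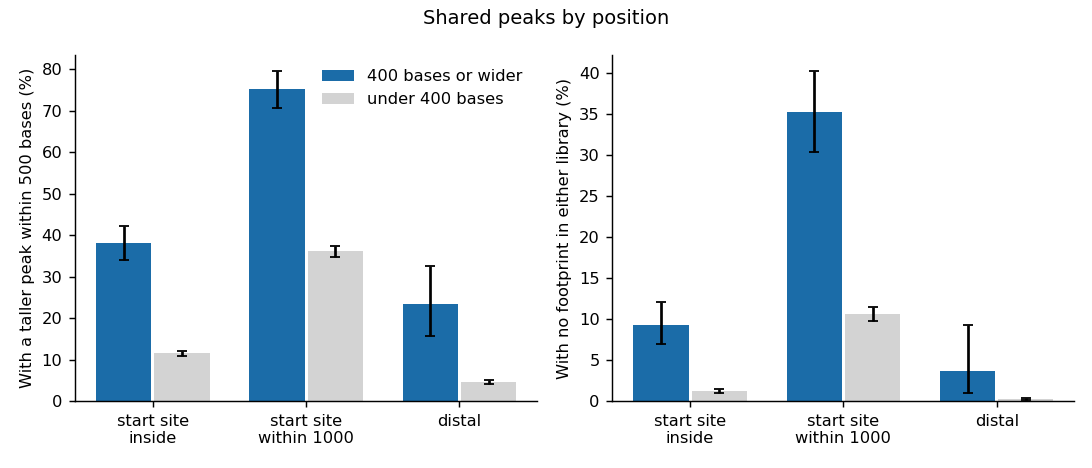
Share of shared peaks with a taller strict peak within 500 bases (left) and with no footprint in either library (right), by position relative to start sites, for peaks of 400 bases or more (blue) and under 400 bases (grey); bars start at 0 and error bars are exact binomial 95% intervals. Both shares are highest for wide peaks whose start site lies outside the peak but within 1000 bases, at 75.3% and 35.2%.

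A wide peak held slightly more footprints than a narrower one, but fewer per base. A member held a median of 5 footprints in replicate 1 and 4 in replicate 2 (4.50 ± 0.707, SD, n = 2 libraries), with at most 19 and 17, against 4 and 3 in narrower peaks and 5 and 4 in shared peaks of 300 to 399 bases. The density divides by width, the value that chose the members, and is a description. Per 100 bases this was 0.969 and 0.870 (0.919 ± 0.0705, SD, n = 2), against 1.79 and 1.67 in narrower peaks (1.73 ± 0.0842, SD, n = 2). The gap was -0.807 per 100 bases. Each SD compares the 2 libraries over the same regions, so it does not measure whether wide and narrower peaks differ. Between heights of 1.34 and 3.42 the densities were 0.803 and 0.690 in members and 1.5 and 1.36 in narrower peaks.

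Many wide peaks had no footprint at all. In 189 members (18.3%) neither library called one, against 3.55% of all shared peaks and 13.3% of those of 300 to 399 bases. The share was 39.6%, 27.8%, 5.45% and 0% from the lowest to the highest of the 4 height classes, so members without a footprint were mostly low ones. Within the height band of 1.34 to 3.42 in replicate 1, 16.7% of members and 3.06% of narrower peaks had no footprint. Members were the lower ones within this band, at a median of 1.89 against 2.17. By position, the share of members was 35.2% where the start site lay outside the peak, 9.34% where it lay inside and 3.74% in distal members. Narrower peaks of these positions had 10.6%, 1.29% and 0.309%. Over the members, Spearman's rho between height and number of footprints was 0.680 in replicate 1 and 0.568 in replicate 2, whereas width and footprints of replicate 1 gave -0.013; each pair comes from the same library, and heights and footprints were called on the same reads.

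The sequence of the wide peaks was that of CpG-rich promoters. Their median G plus C content was 67.4%, against 60.0% in narrower peaks, and CpG observed over expected was 0.818 against 0.637. With a start site inside, the ratio was alike, 0.853 in members and 0.852 in narrower peaks. Distal members had 0.455, above the 0.294 of distal narrower peaks. Bases that the reference sequence masks as repeats made up a median of 5.00% of a member and 0% of a narrower peak. A longer peak has more room to meet such bases, and no repeat element was identified.

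Motifs were searched as exact words on both strands in the central 300 bases of every shared peak, a window of the same length for wide and narrower ones. The CTCF word, for the zinc finger protein that marks insulators and loop anchors, was nearly missing: 3 members (0.290%) had it, against 9.35% of all shared peaks. None of the 107 distal members had it, whereas 20.7% of distal narrower peaks did. In the whole peak, 4 members had it, at Crem, Tmem62, Nectin2 and 3110067C02Rik, named after their values were seen.

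The GC box GGGCGG, bound by SP family factors, was found in 66.2% of members and 49.0% of all shared peaks, though with a start site inside the shares were 74.5% and 72.5% for members and narrower peaks. CCAAT, the NFY word, was found in 20.4% and 31.7%. CCGGAAG, an ETS word, was found in 10.6% and 11.9%, but with a start site inside in 13.6% of members and 21.4% of narrower peaks. Among distal peaks the GC box was in 43.0% of members and 18.7% of narrower peaks. TGTGGT, the RUNX word, was in 24.3% of distal members and 23.5% of distal narrower peaks. GAGGAAGT, the PU.1 word, was in 11 of 107 distal members (10.3%) and 4.10% of distal narrower peaks. These words overlap other motifs and a match is not a bound site.

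The widest members were promoter regions of genes with different roles. At Mid1ip1, next to the noncoding Gm14493, a peak of 1000 bases on the X chromosome had a height of 0.697 in replicate 1 and 0.610 in replicate 2, no footprint, and a neighbour of height 9.14. At Anp32a, a histone-binding acidic protein, the 960-base peak had heights of 1.81 and 1.26. Both peaks were lower than the median member of replicate 1.

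Pabpc1, the cytoplasmic poly(A)-binding protein, and Paip1, its partner in translation, both had 940-base members. The Pabpc1 peak was 1.86 and 1.47 high, lay 622.5 bases downstream by its centre, held no footprint, and stood beside a peak of 25.6. The Paip1 peak was 2.30 and 1.87 high, had its centre 52.5 bases downstream, and held 13 and 12 footprints. Peaks of the same width thus differed in footprints and in their neighbours.

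Plcb4, a phospholipase C, had a 940-base peak of 0.940 and 0.691, of which replicate 2 called 129 bases. The Fryl peak, 920 bases, was 1.54 and 1.31 high beside one of 13.0. The 900-base peak at Gnas, the stimulatory G protein subunit of an imprinted locus, was 2.32 and 1.76 high. The 880-base peaks of Gphn and of Baz2b with Gm13620 were 2.52 and 1.65, and 1.59 and 1.27.

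The 5 highest members by the mean of both libraries were promoters. At Dnpep, an aspartyl aminopeptidase, the height was 40.4 in replicate 1 and 19.5 in replicate 2 over 480 bases. Rab8a, a small GTPase of vesicle traffic, had 29.3 and 16.2, and Hmgb1, a chromatin protein, had 26.1 and 15.1. Hdgfl2 had 31.6 and 15.0 and Vkorc1l1 25.7 and 16.9. All 5 had a start site inside and at least 9 footprints in each library.

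By the mean of both libraries, most footprints were found at Wipi1, an autophagy protein, with 13 in replicate 1 and 17 in replicate 2, and at Map3k1, a stress kinase, with 19 and 11 in an 800-base peak of height 3.63 and 2.45. Skil had 16 and 11, Mvb12b 13 and 13, and the promoter of Brpf1 with Gm43935 13 and 12, the highest peak of 6 members tied at that mean. High counts therefore came with heights from 1.78 (Mvb12b) to 25.3 (Gm43935) in replicate 1.

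Distal members were few, 107 of 1034, and the widest of them were mostly low. The Gm48783 peak, 780 bases and 14969 bases from Nid1, a basement membrane gene, was 1.37 and 0.830 high with 10 footprints in each library. The 720-base peak near Gm49250 was 0.873 and 0.626 high, had no footprint, and replicate 2 called 68 bases of it. The 700-base peak of Arid5b was 1.14 and 1.07 high with 5 and 4 footprints. In replicate 2 all 3 were cut into pieces or shortened.

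The 680-base peak 13129 bases from Ccne1, the cyclin E1 gene, had heights of 1.59 and 1.07 and stood beside a peak of 27.2. The 600-base peak in an intron of Maml3, a Notch coactivator, was 3.29 and 1.66 high with 14 and 11 footprints, and replicate 2 called 680 bases there. The 600-base peak near Gm23507, 27355 bases from Akap1, was lower in replicate 1 than in replicate 2, at 1.78 and 2.72. The 660-base peak 1947 bases from Sde2 and the 620-base peak near Gm12801, 27539 bases from Jak1, had heights of 1.81 and 1.02, and 1.43 and 1.33.

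Some gene lists had a wide peak at more of their start sites than genes in general. Of all 21911 protein-coding genes 893 (4.08%) had a member within 1000 bases of a start site, which is 7.99% of the 11182 with any shared peak there. Chromatin regulators had 6 of 22 (27.3%), immediate early genes 5 of 23 (21.7%) and transcription factors of many blood lineages 7 of 34 (20.6%). Among those with a shared peak the shares were 28.6%, 21.7% and 21.9%. These counts are small, the lists were chosen by hand and no test was made of them.

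Among the immediate early genes, induced within minutes by growth signals, the AP-1 subunits Jun, Jund and Fos differed. The Jun peak, at chr4:95051441-95051880 over the gene, was 1.02 and 0.691 high, had no footprint and stood beside a peak of 12.1. The Jund peak was 2.22 and 1.72 high beside one of 25.8. The Fos peak held its own start site, was 3.77 and 2.52 high with 8 and 5 footprints, and had no other strict peak within 500 bases. Ier5 had a 620-base peak of 2.30 and 1.68 with no footprint, and Myc a 480-base peak of 1.17 and 0.952.

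Rel, the NF-κB subunit c-Rel, had the tallest member of the blood transcription factors at 4.58 and 2.68 over 620 bases, with 820 bases in replicate 2. Etv6, an ETS repressor, had a pair of members of 440 and 640 bases side by side, the wider at 1.65 and 1.27. Irf2 and Runx1 had a pair each, those of Runx1 at separate start sites of the gene. Irf1 had 2.79 and 1.64 beside a peak of 11.2. The other members were at Lmo2, a bridging factor of blood stem cells, with 2.45 and 1.74, and Runx2, with 0.999 and 0.952.

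Among the chromatin regulators Tet3, which oxidises methylated cytosine, had 5.04 and 2.72, and Hdac2, a histone deacetylase, had 4.26 and 3.06. Dnmt3a, a DNA methyltransferase, had only 0.915 and 0.846. The widest was at Brd2, a bromodomain protein, at 600 bases and 1.78 and 1.29, with no footprint. The others were at Arid1a (a pair) and Chd4, both remodelling subunits.

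For genes that mark single cell types the counts were 0 or 1, too small to be set apart from the 7.99% of all genes with a shared peak. Erythroid genes had 0 of the 18 with a shared peak and T cell genes 0 of 5. B cell genes had 1 of 12 (8.33%), at Cd37, a tetraspanin, with 4.54 in replicate 1 and 1.68 in replicate 2. Macrophage and dendritic cell genes had 1 of 8 (12.5%), at Slc40a1, the iron exporter ferroportin, with 0.890 and 0.773 over 400 bases.

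Of the 14 granulocyte and natural killer genes and the 10 liver genes, 0 had a shared peak, and the stromal and endothelial, nerve and muscle lists had 2 each, so these lists could show few wide peaks or none. Among genes with a shared peak, ribosomal protein genes had 0 of 18 and RNA processing genes 2 of 18 (11.1%), beside the same 7.99% of all genes. The latter were at Srsf6 (5.15 and 3.38) and over the Cbx3 start, within 1000 bases of that of Hnrnpa2b1 (5.20 and 2.66).

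**Figure D5:**
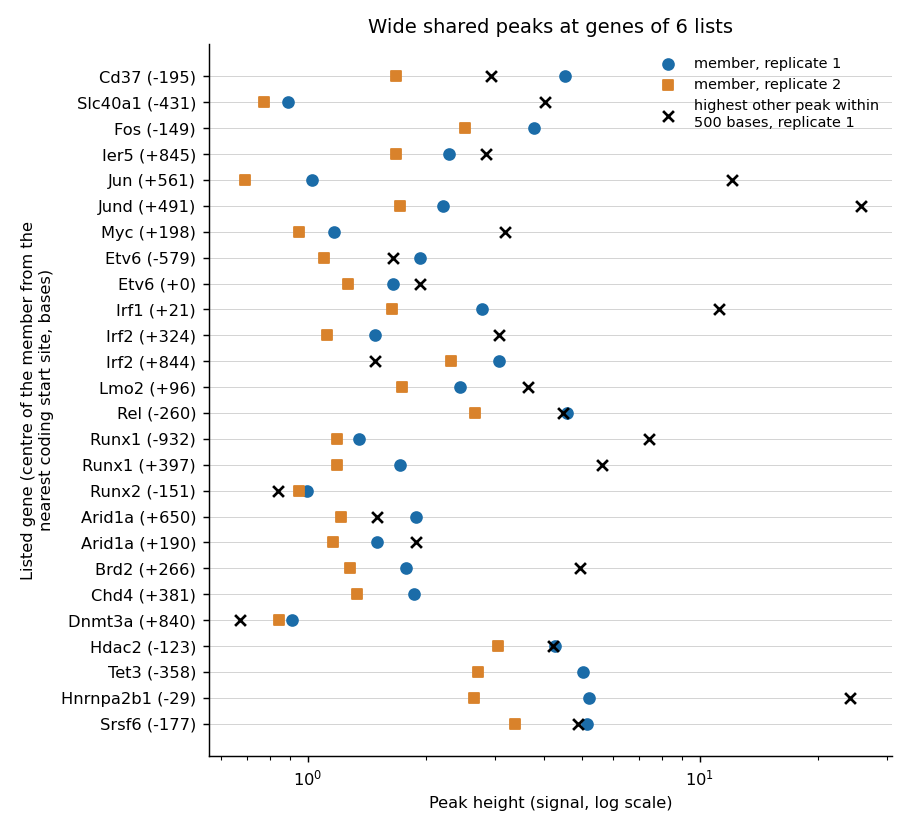
Height of every member at a gene of the 6 lists with wide peaks described above, on a log scale, in replicate 1 (blue circles) and replicate 2 (orange squares), with the highest other strict peak of replicate 1 within 500 bases (crosses); brackets give the centre's distance from the nearest protein-coding start site. Replicate 1 lies above replicate 2 in every row, and the crosses reach 25.8 at Jund and 12.1 at Jun, far above the members beside them.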

How the data were processed

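DNase-seq was made of 2 spleen libraries, 1 per biological replicate. Per the labels and the deposited file descriptions, the authors called peaks, footprints and false discovery rates for each library separately on mm10; the name of any aligner or caller is not given in the sources consulted. Each peak has 1 deposited signal value, the height used here, on a scale that is not stated. The false discovery rates deposited by the authors (q-values of the cut rate) cover stretches under 0.05, and bases at or under 0.001 were counted. The footprint lists hold 1 constant beside each position, so only positions were used. Read depth is unknown here.

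Start sites and exons came from GENCODE M21 and sequence from GRCm38. Where several replicate 2 peaks overlapped a member, the highest gave the height and the widest the width. A neighbour was a strict peak of the same library within 500 bases. Motifs (16 words) were matched on both strands in the central 300 bases. Calculations used Python 3.11.15, pandas 2.3.3, numpy 2.4.6 and scipy 1.17.1, and the overlap, coverage and motif steps were tested on simulated intervals.

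The members and gene lists were chosen with earlier results of these data known. Named members were the 10 widest, the 8 widest distal, the 5 highest, the 5 with most footprints, the 5 widest in replicate 2, 5 on each side of the limit and the widest of each gene list; other list genes were named after their values were seen. Alternatives varied the width limit, the peak list, the start site window, the overlap and the libraries. Some items that these rules name are not reported here.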

Additional observations from a re-analysis of the deposited data

How the results depend on the processing

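Under the alternatives run for them, the gap in footprints per 100 bases stayed negative. The median centre and the median log2 ratio between the libraries stayed positive. The other values were counts, shares and medians without a sign, so they could not change direction. The number of members was 2836 with a limit of 300 bases, 355 with 500 and 1707 with the larger peak lists, and ran from 1048 to 1349 without replicate 1 or replicate 2. The share near start sites was 84.6% in a window of 500 bases, 86.5% for protein-coding starts, 92.4% from 500 bases, 92.2% with 50% of the member covered in replicate 2, 83.0% in the larger lists, and 82.1% to 83.8% with either library left out. The share also wide in replicate 2 was 55.4% with a limit of 300 bases there and 55.5% in its larger list. Median footprints in replicate 1 were 4 from 500 bases, 6 at 50% cover and 3 in the larger lists (4 to 5 with a library left out); in replicate 2 they were 5 at 50% cover and 3 in the larger lists (3 to 5). The gap in footprints per 100 bases was -0.851 against narrower peaks at or above the members' lower quartile of height.

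Chosen after seeing the data, the same gap was -0.685 within the interquartile height and -0.782 with 1 member per merged region. Also chosen then, the share with a taller neighbour was 40.9% from 300 bases, 59.4% from 500 and 47.1% at 50% cover (42.7% to 49.2% with a library left out), the share without footprints was 15.1% from 300 bases, and the median centre was 10.5 bases downstream from 300 bases, 112.5 from 500 and 46.5 at 50% cover (45.5 to 73.5 with a library left out). The causes were not tested. No paired analysis was possible because there was 1 group and so no groups to pair. Unknown read depth limits what can be said of footprints missing from low peaks, and 2 libraries limit every spread.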
